A study of Homo sapiens with 16 samples.

Results

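Bromodomain readers are proteins that bind acetylated lysines on histones, the mark that acetyltransferases such as p300 write. The 8 genes BRD1, BRD2, BRD3, BRD7, BRD8, BRD9, BRPF1 and BRPF3 were chosen by name, from what they encode, with earlier results of these data known. Each was found among the 57500 genes counted in each library. All 8 passed the filter on low counts in every comparison. The counts came from bulk RNA-seq, in 16 libraries, of NCI-H929 cells, an established line from a human multiple myeloma, the cancer of plasma cells. In 1 experiment, cells received compound 27, a small molecule that directs the p300 protein to degradation, at 3 nM for 6 h (the degrader group, 4 libraries), or the solvent DMSO (4 libraries). In the other, p300 knockout cells (p300 KO, 4 libraries) were set beside NTC cells (4 libraries), an abbreviation that the labels do not expand. The labels give no compound for the NTC and KO cells, and state neither how the knockout was made nor whether it is 1 clone or a pool. They also do not say whether replicates were separate cultures, so p-values here reflect only how far these samples spread, which may be technical.

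A bromodomain is a small fold with a pocket for acetyl-lysine, and most proteins that carry one work inside larger chromatin complexes. BRD1 (also called BRPF2), BRPF1 and BRPF3 are scaffolds that hold together acetyltransferase complexes built on MOZ, MORF or HBO1. BRD2 and BRD3 belong to the BET family, whose paired bromodomains sit on acetylated histones and recruit transcription factors and elongation factors. BRD7 and BRD9 are subunits of different forms of the SWI/SNF chromatin remodeller, PBAF and non-canonical BAF, and BRD8 is a subunit of the NuA4/TIP60 acetyltransferase and remodelling complex. In myeloma cells, acetyl-lysine readers are known for keeping lineage and growth genes active, which makes them drug targets.

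The genes lie on 6 chromosomes of GRCh38, as the count files give their exons. On chromosome 22, BRD1 (ENSG00000100425) spans 49773283 to 49827512, minus strand. On chromosome 3, BRPF1 (ENSG00000156983) spans 9731729 to 9748018, plus strand. Chromosome 6 carries BRPF3 (ENSG00000096070) from 36196744 to 36232790 and BRD2 (ENSG00000204256) from 32968660 to 32981505, both on the plus strand. BRD3 (ENSG00000169925) spans 134030305 to 134068535 of chromosome 9, minus strand. BRD7 (ENSG00000166164) spans 50313487 to 50368934 of chromosome 16, minus strand. Chromosome 5 carries BRD9 (ENSG00000028310) from 850291 to 892824 and BRD8 (ENSG00000112983) from 138139766 to 138178986, both on the minus strand. All 8 are annotated as protein coding.

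Promoter sequences show what surrounds the starts of these transcripts. RefSeq promoter windows (GRCh38.p14, 250 bases before to 50 after the gene start) matched all 8 genes. The RefSeq start lay 0 to 66 bases from the outermost start in the count files for BRD2, BRD7, BRPF1 and BRPF3, and 274 to 509 bases away for the others. The stretches of 250 bases before the start are printed for BRPF3, BRD7, BRD2 and BRD1. BRPF3 was higher in both comparisons once a library was left out. For BRD7, BRD2 and BRD1, responses to the degrader and the knockout differed in that setting. BRD8 was likewise higher in both, and the responses of BRD9 likewise differed. BRD8 and BRD9 are not printed because their RefSeq starts lay 356 and 274 bases inside the gene's span in the count files. The printed stretches run 5′ to 3′ in the direction of transcription. The capitals mark the GC box, the 6 letters GGGCGG or, on the other strand, CCGCCC. Positions are chr6:36196494-36196743 (plus strand) for BRPF3, chr16:50368989-50369238 (minus) for BRD7, chr6:32968344-32968593 (plus) for BRD2 and chr22:49827874-49828123 (minus) for BRD1.
BRPF3: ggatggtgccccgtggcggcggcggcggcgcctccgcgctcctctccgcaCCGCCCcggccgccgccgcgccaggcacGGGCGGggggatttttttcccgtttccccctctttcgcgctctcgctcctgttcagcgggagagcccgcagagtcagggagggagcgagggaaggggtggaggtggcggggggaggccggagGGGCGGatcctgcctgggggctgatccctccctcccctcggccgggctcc
BRD7: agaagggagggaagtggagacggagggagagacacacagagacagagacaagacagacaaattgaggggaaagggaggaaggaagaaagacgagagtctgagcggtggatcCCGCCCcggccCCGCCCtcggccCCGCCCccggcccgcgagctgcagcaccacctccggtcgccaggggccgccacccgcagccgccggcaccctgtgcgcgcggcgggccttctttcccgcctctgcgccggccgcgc
BRD2: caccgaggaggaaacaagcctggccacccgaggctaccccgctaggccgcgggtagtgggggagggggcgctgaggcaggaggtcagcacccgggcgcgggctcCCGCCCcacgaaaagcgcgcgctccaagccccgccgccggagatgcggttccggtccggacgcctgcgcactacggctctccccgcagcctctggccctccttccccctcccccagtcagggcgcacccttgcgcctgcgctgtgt
BRD1: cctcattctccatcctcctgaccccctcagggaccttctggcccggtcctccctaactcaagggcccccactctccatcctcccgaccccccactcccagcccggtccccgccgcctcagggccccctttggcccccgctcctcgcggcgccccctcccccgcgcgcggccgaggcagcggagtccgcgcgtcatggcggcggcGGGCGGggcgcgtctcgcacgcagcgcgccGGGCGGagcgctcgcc

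The GC box letters occurred in the 300-base window of 7 of the 8 genes, BRD8 being the exception, against 44.6% of the 27305 windows in the table. Each motif was searched as exact letters on both strands. None of the 8 windows held the letters of the ETS motif (CCGGAAG, in 10.7% of all windows), the CRE (TGACGTCA, 1.98%), the E-box (CACGTG, 7.43%), the CCAAT box (CCAAT, 35.7%) or the TATA box (TATAAA, 12.0%). BRD8 alone held the YY1 letters AAGATGGCG (1.85% of all windows), at position 264 of its window. GC content ran from 66.7% in BRPF1 to 85.0% in BRD3, and was 51.0% in BRD8. A match to letters is a description and not evidence of binding.

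Libraries differed in depth and in their share of mitochondrial transcripts. Total counts ran from 12.6 M to 23.1 M, so that a count of 0 would allow up to 3 counts, or 0.130 to 0.238 CPM (counts scaled to library size, per 1 M); such floors cover counting error only. Mitochondrial genes took 64.9% of the counts in degrader replicate 2 and 47.7% in p300 KO replicate 1, which left 4.42 M and 8.66 M other counts. In the remaining libraries the share was 13.4 to 23.5% in DMSO, 5.99 to 6.96% with the degrader, 8.91 to 10.3% in NTC and 10.2 to 11.4% in the KO. The DMSO and degrader ranges do not overlap, so this share moves with the degrader comparison. Each test of a member is therefore given with all libraries and without degrader 2 or p300 KO 1. The cell type was checked with marker lists: all 9 plasma cell markers had counts in every library, with a summed level of 3456 CPM in degrader 2 and 7269 to 16698 CPM in the others (per total counts, mitochondrial ones included, as for all marker levels). Of 5 T cell markers only CD3E exceeded 0.339 CPM. Of 7 fibroblast and epithelial markers, COL1A2 and DCN were at 0 in 14 libraries and EPCAM in 8. COL1A1, KRT8, KRT18 and CDH1 had counts in every library, KRT18 the most, at 4.8 to 14.3 CPM. This list summed to 8.88 to 12.7 CPM in DMSO and 6.04 to 12.3 CPM with the degrader. Its sums were 17.2 to 18.5 CPM in NTC and 11.9 to 18.5 CPM in the KO. Several lists moved with the groups. Of the plasma cell markers 1 of 9 fell with the degrader, IRF4, a transcription factor of this lineage (−0.88, edgeR, adjusted p = 0.00475), and without degrader 2, 3 rose and 2 fell, with IRF4 at −0.93. In the knockout 5 of 9 fell and none rose, with IRF4 at −0.45 (edgeR, adjusted p = 0.00203), and without p300 KO 1, 6 fell and 1 rose. The median log2 fold change of the list was −0.094 and 0.033 with the degrader, and −0.27 and −0.32 in the knockout, in that order of libraries. Beside these counts of markers, 1.64% of all genes were called higher with the degrader and 3.12% lower. Without degrader 2 the shares were 18.2% and 20.3%. In the knockout they were 6.23% and 10.7%, and without p300 KO 1 they were 19.1% and 21.8%. The T cell list, chiefly CD3E, summed to 36.3 to 44.0 CPM in DMSO and 4.92 to 26.1 CPM with the degrader. In NTC and the KO the T cell sums overlapped. The 5 markers of earlier B cells summed to 4.93 to 6.52 CPM in DMSO and 7.15 to 10.6 CPM with the degrader. They went the other way in the knockout, at 10.2 to 11.9 CPM in NTC and 4.89 to 6.10 CPM in the KO. The 5 monocyte markers were lower in both comparisons. They summed to 1.20 to 1.46 CPM in DMSO and 0.397 to 1.01 CPM with the degrader. Their sums were 7.57 to 11.6 CPM in NTC and 4.65 to 5.23 CPM in the KO. Of these 5 only CSF1R, which reached 10.9 CPM, exceeded 1.27 CPM in any library. The part of these marker lists in the results was not tested.

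EP300, which encodes p300, checked the labels. In NTC 1 to 4 its transcript stood at 99.8, 92.4, 90.9 and 94.4 CPM and, in p300 KO 1 to 4, at 50.1, 38.1, 34.0 and 37.3 CPM. The KO libraries all lay below the NTC libraries, and the change in log2 units was −1.25 ± 0.11 (± SE throughout; quasi-likelihood test of edgeR, adjusted p = 2.19e-04 after Benjamini-Hochberg) with all libraries and −1.37 ± 0.06 (adjusted p = 4.2e-24) without p300 KO 1. The degrader acts on the protein, so the transcript is no check of that treatment.

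Levels of the 8 genes were first compared with each other, as CPM per kilobase of exon on 1 scale over the 16 libraries. BRD2 was the most abundant in all 4 groups, with a mean of 28.4 in DMSO, 33.5 with the degrader (without degrader 2), 28.0 in NTC and 27.8 in the KO (without p300 KO 1). In these same libraries BRD2 overlapped with no other member. BRD3 and BRPF3 were at the bottom, at 1.52 and 1.70 in DMSO, where their ranges overlapped, and at 2.72 and 3.68 in NTC, where they did not. The order in between shifted from group to group. In DMSO it ran BRD9 (15.7), BRD8 (10.2), BRD1 (8.52), BRD7 (8.37) and BRPF1 (6.71), and neighbours from BRD8 down to BRPF1 overlapped. With the degrader BRD8 (16.2) came second, BRD7 (12.3) and BRD9 (12.3) overlapped with each other, and BRPF1 (7.45) and BRD1 (7.40) did too. In NTC BRD8 (9.80) came second, ahead of BRD1 (6.94), BRD7 (6.70), BRPF1 (6.10) and BRD9 (5.44), whose neighbouring ranges overlapped. In the KO the order was BRD8 (14.2), BRD1 (7.89), BRD7 (7.43), BRPF1 (6.33) and BRD9 (5.63), and among these only BRD1 and BRD7 overlapped.

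**Figure D1:**
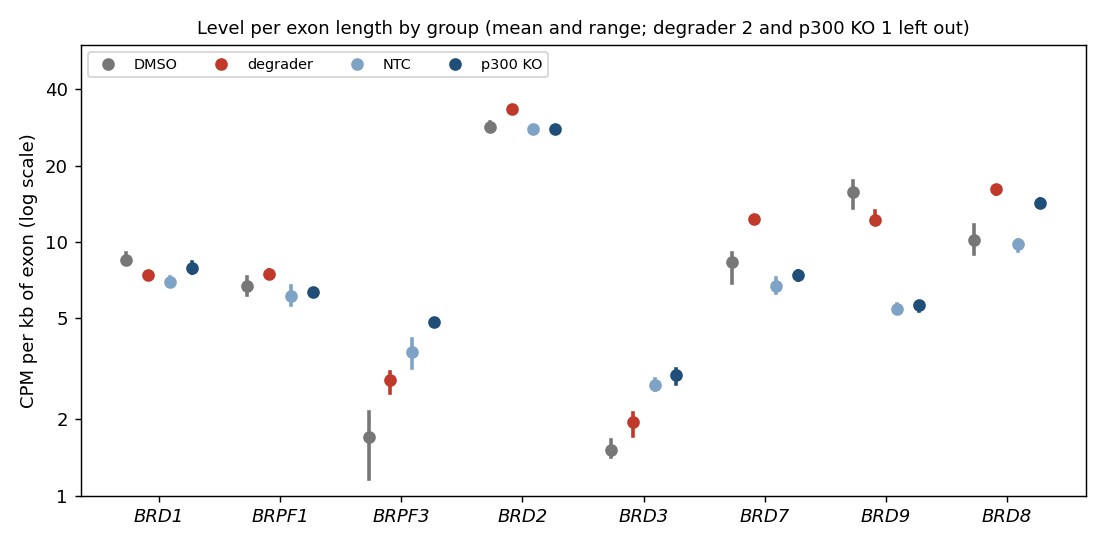
Level of each transcript in CPM per kilobase of exon (log axis) by group, with the mean as a point and the range over libraries as a bar; degrader 2 and p300 KO 1 are left out, so n = 4, 3, 4 and 3. BRD2 stands highest in each group, and BRD9 is at 15.7 in DMSO against 5.44 in NTC.

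The control groups of the experiments were not alike for 4 of the genes. BRD9 had 2.89 times the level in DMSO that it had in NTC, and BRD1 1.23 times, with no overlap between libraries. BRPF3 was 2.17 times and BRD3 1.80 times as high in NTC as in DMSO, also with no overlap. The ranges of BRD2, BRD7, BRD8 and BRPF1 overlapped. The share of all genes without overlap between these controls was not counted, so the 4 cannot be read as particular to the members. DMSO and NTC belong to separate experiments, so treatment and experiment cannot be told apart here and no test was made.

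The first comparison asks which reader transcripts differ after 6 h with the degrader. With all libraries, BRPF3 rose and no other member passed the test, 1 of 8 against 4.76% of all 15872 genes tested (1.64% higher, 3.12% lower). Without degrader 2, BRPF3, BRD8, BRD7, BRD3 and BRD2 rose and BRD9 fell, 6 of 8 against 38.5% of 16297 genes (18.2% higher, 20.3% lower). The median log2 fold change of the members was 0.53 with all libraries and 0.29 without degrader 2, beside 0.045 and −0.036 over all genes tested. Every degrader library lay above every DMSO library for 4 members with all libraries (7.60% of all genes) and for 5 without degrader 2 (21.9%). Every degrader library lay below for 1 (9.24%) and 2 (22.7%) members. In bulk RNA, a change in the number of cells of a kind and a change in RNA per cell cannot be told apart.

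The second comparison asks the same of the knockout. With all libraries, BRD8 rose and no other member passed, 1 of 8 against 17.0% of 17350 genes (6.23% higher, 10.7% lower). Without p300 KO 1, BRD8, BRPF3, BRD1 and BRD7 rose and none fell, 4 of 8 against 40.9% of 17706 genes (19.1% higher, 21.8% lower), which is close to the share of all genes called. The median of the members was 0.29 with all libraries and 0.16 without p300 KO 1, beside 0.025 and 0.00069 over all genes. Every KO library lay above every NTC library for BRD8 with all libraries (12.5% of all genes), and for BRD8, BRPF3 and BRD1 without p300 KO 1 (19.8%). No member had every KO library below NTC, against 16.1 and 22.2% of all genes.

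**Figure D2:**
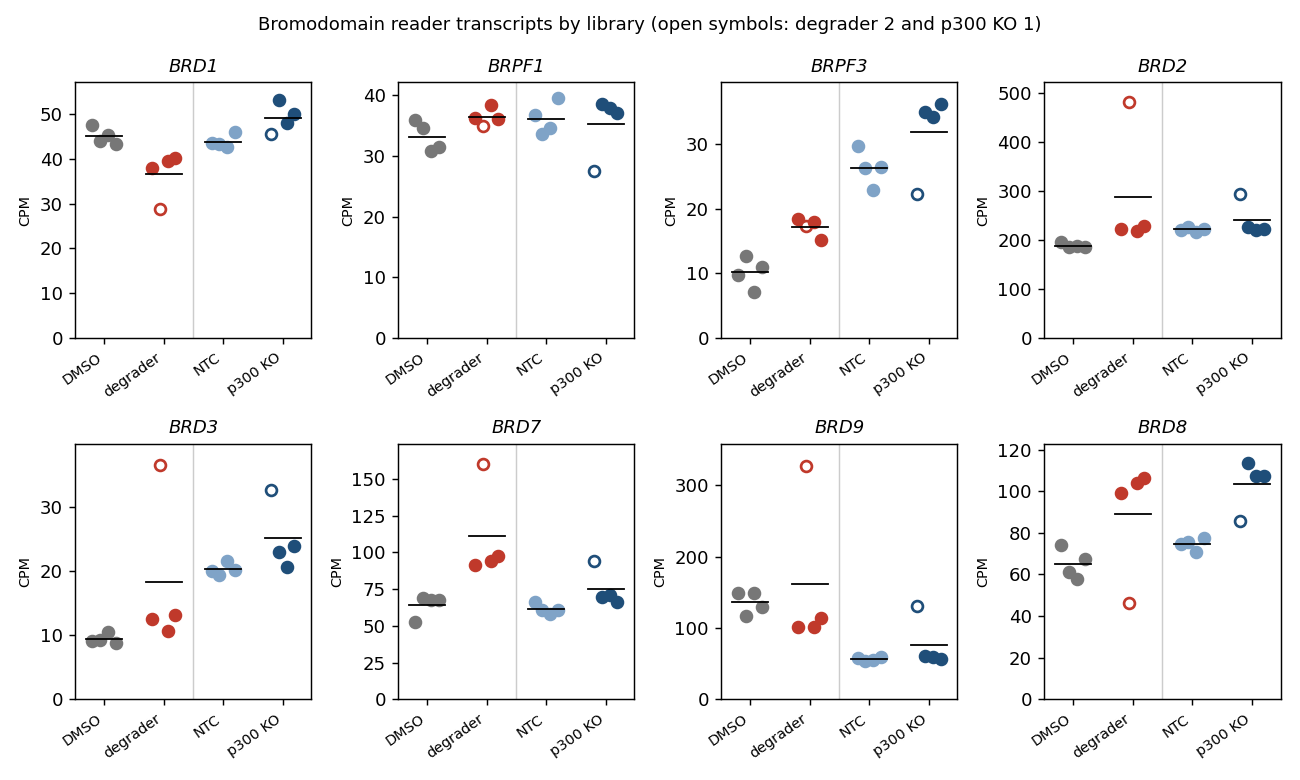
CPM of each transcript in every library, scaled within each of the 2 experiments, with a bar at the group mean over 4 libraries; open symbols are degrader 2 and p300 KO 1. BRPF3 in the degrader libraries (15.1 to 18.4 CPM) sits above DMSO (7.06 to 12.7 CPM), while BRD9 in degrader 2 reaches 327 CPM against 102 to 115 CPM in the other degrader libraries.

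Among the acetyltransferase scaffolds, BRPF3 differed most. It stood at 9.71, 12.7, 7.06 and 11.0 CPM in DMSO 1 to 4 and at 18.4, 17.3, 17.9 and 15.1 CPM in degrader 1 to 4. The groups do not overlap, and degrader 2 lay among its mates. The log2 fold change was 0.76 ± 0.18 with all libraries (edgeR, Benjamini-Hochberg adjusted p = 0.0470) and 0.74 ± 0.16 without degrader 2 (adjusted p = 0.00222), a 1.67-fold rise. In each of the 7 fits that left out another library the call was lost, with a log2 fold change of 0.62 to 0.89 and adjusted p from 0.0508 to 0.146. Those fits called 197 to 358 of all genes, beside 755 with all libraries. The DMSO values also followed the mitochondrial share: the libraries with 13.4, 15.5, 19.7 and 23.5% had 12.7, 11.0, 9.71 and 7.06 CPM of BRPF3.

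In the knockout experiment the BRPF3 levels of NTC 1 to 4 were 29.7, 26.2, 22.8 and 26.4 CPM, and those of p300 KO 1 to 4 were 22.2, 34.9, 34.1 and 36.2 CPM. Here p300 KO 1 lay below every NTC library and the other KO libraries lay above all of them. The log2 fold change was 0.29 ± 0.15 with all libraries (edgeR, adjusted p = 0.201). Without p300 KO 1 the transcript rose by 0.41 ± 0.07 (adjusted p = 3.63e-06), a 1.33-fold difference.

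BRD1, the scaffold most tied to HBO1, was lower in all degrader libraries than in any DMSO library, and higher in 3 of the 4 KO libraries than in any NTC library. It had 47.5, 44.1, 45.3 and 43.4 CPM in DMSO 1 to 4 and 37.9, 28.9, 39.4 and 40.2 CPM in degrader 1 to 4. Degrader 2 was the lowest of them, and the test was not passed with all libraries (log2 fold change −0.30 ± 0.13, edgeR, adjusted p = 0.223) or without degrader 2 (−0.21 ± 0.08, adjusted p = 0.0529). NTC 1 to 4 had 43.6, 43.4, 42.6 and 46.0 CPM and p300 KO 1 to 4 had 45.5, 53.2, 48.1 and 49.9 CPM. Only p300 KO 1 fell within the NTC range. BRD1 had 0.17 ± 0.07 with all libraries (edgeR, adjusted p = 0.125) and rose by 0.20 ± 0.06 without p300 KO 1 (adjusted p = 0.00459).

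BRPF1, the scaffold most tied to MOZ and MORF, passed the test in neither comparison. It ran from 30.9 to 35.9 CPM in DMSO, 34.9 to 38.4 CPM with the degrader, 33.6 to 39.5 CPM in NTC and 27.6 to 38.5 CPM in the KO, with overlap in both comparisons. On this scale the overlap with DMSO is due to degrader 2, the lowest of its group, since degrader 1, 3 and 4 had 36.2, 38.4 and 36.1 CPM. With the scaling computed anew without degrader 2 the ranges still overlap, which is why BRPF1 is not among the 5 members counted above DMSO in that setting. Its log2 fold change with the degrader was 0.13 ± 0.10 with all libraries and 0.14 ± 0.09 without degrader 2 (edgeR, adjusted p = 0.486 and 0.211). In the knockout it was −0.03 ± 0.11 and 0.06 ± 0.06 (adjusted p = 0.876 and 0.426). The lowest KO value belongs to p300 KO 1.

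Of the BET genes, BRD2 had 196, 185, 187 and 185 CPM in DMSO 1 to 4 and 222, 482, 217 and 228 CPM in degrader 1 to 4. The groups do not overlap, and degrader 2 had over double the level of its mates. The log2 fold change was 0.61 ± 0.26 with all libraries (edgeR, adjusted p = 0.232), and without degrader 2 BRD2 rose by 0.23 ± 0.08 (adjusted p = 0.0318), 1.17-fold. In NTC 1 to 4 BRD2 had 219.8, 228, 217 and 223 CPM, and in p300 KO 1 to 4 it had 294, 227, 219.99 and 222 CPM. Apart from p300 KO 1 the groups cover the same range, and the log2 fold change was 0.12 ± 0.10 with all libraries and 0.01 ± 0.05 without that library (edgeR, adjusted p = 0.428 and 0.940).

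BRD3 was expressed far lower than BRD2. It had 9.11, 9.30, 10.5 and 8.79 CPM in DMSO 1 to 4 and 12.5, 36.5, 10.7 and 13.2 CPM in degrader 1 to 4. The lowest degrader library lay just above the highest DMSO library, and degrader 2 was far above both. With all libraries BRD3 had a log2 fold change of 0.91 ± 0.37 (edgeR, adjusted p = 0.205), and BRD3 rose by 0.36 ± 0.11 without degrader 2 (adjusted p = 0.0223), 1.28-fold. NTC libraries ran from 19.4 to 21.5 CPM and KO libraries from 20.7 to 32.6 CPM, the highest being p300 KO 1. The test was not passed there with all libraries (0.29 ± 0.13, edgeR, adjusted p = 0.143) or without p300 KO 1 (0.15 ± 0.07, adjusted p = 0.0916).

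The SWI/SNF readers are BRD7 and BRD9, and without degrader 2 BRD7 rose and BRD9 fell with the degrader. With the mitochondrial share as a covariate, BRD7 and BRD9 had 0.33 and 0.25 without degrader 2, neither called. The sign of BRD9 thus changed in that fit. With all libraries BRD9 was already positive without the covariate, at 0.24. With the covariate and all libraries BRD7 and BRD9 were both called higher (0.81 and 0.22, edgeR, adjusted p = 1.32e-06 and 0.0203). That fit leans on degrader 2, with 64.9% mitochondrial counts against 5.99 to 6.96% in its mates. BRD7, the PBAF subunit, had 52.4, 69.0, 67.6 and 67.9 CPM in DMSO 1 to 4 and 91.7, 160, 94.4 and 97.5 CPM in degrader 1 to 4. The groups do not overlap, DMSO 1 was low within its group and degrader 2 high within its own. With all libraries BRD7 had 0.79 ± 0.20 (edgeR, adjusted p = 0.0654), and BRD7 rose by 0.55 ± 0.10 without degrader 2 (adjusted p = 7.30e-04), 1.46-fold. It had 66.4, 60.6, 58.2 and 60.7 CPM in NTC 1 to 4 and 94.2, 69.6, 71.0 and 66.2 CPM in p300 KO 1 to 4. The ranges touch, since p300 KO 4 lay just below NTC 1. The log2 fold change was 0.29 ± 0.11 with all libraries (edgeR, adjusted p = 0.104) and 0.16 ± 0.05 without p300 KO 1, where BRD7 rose (adjusted p = 0.0141).

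Of the exon bases of BRD7, 42.4% are shared with other genes, chiefly 3593 bases with ADCY7 on the opposite strand. ADCY7, an adenylate cyclase, had −0.80 with the degrader with all libraries and −0.89 without degrader 2 (edgeR, adjusted p = 0.0130 and 3.7e-05), so without degrader 2 it fell while BRD7 rose. In the knockout it had 0.057 with all libraries (edgeR, adjusted p = 0.794) and rose by 0.18 without p300 KO 1 (adjusted p = 0.0168), the direction of BRD7 there. Whether counting used the strand is not given in the sources used here, and how reads in the shared exons were assigned was not tested. BRD3 shares 18.6% of its exon bases, mainly with BRD3OS, and BRD2 11.9%. The other members share at most 4.22%.

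BRD9, the non-canonical BAF subunit, had 149, 117, 148 and 129 CPM in DMSO 1 to 4 and 102, 327, 102 and 115 CPM in degrader 1 to 4. Degrader 2 lay above every DMSO library and the other degrader libraries lay below every one. With all libraries BRD9 had 0.24 ± 0.38 (edgeR, adjusted p = 0.764), and BRD9 fell by 0.36 on the log2 scale without degrader 2 (SE 0.10, adjusted p = 0.0108). Within DMSO the BRD9 level was 117 and 129 CPM in the libraries with 13.4 and 15.5% mitochondrial counts, and 149 and 148 CPM in those with 19.7 and 23.5%. In NTC 1 to 4 it had 57.3, 54.3, 54.9 and 58.7 CPM, and in p300 KO 1 to 4 it had 130, 60.8, 59.7 and 56.1 CPM. The single high value is p300 KO 1, and the log2 fold change was 0.44 ± 0.25 with it and 0.06 ± 0.05 without it (edgeR, adjusted p = 0.240 and 0.381).

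BRD8, the NuA4/TIP60 subunit, was the member called with all libraries in the knockout. It had 74.8, 75.7, 70.6 and 77.5 CPM in NTC 1 to 4 and 85.6, 114, 107 and 107 CPM in p300 KO 1 to 4. Every KO library lay above every NTC library, with p300 KO 1 the lowest of them. BRD8 rose by 0.47 ± 0.09 (edgeR, adjusted p = 0.00872), and by 0.55 ± 0.05 without p300 KO 1 (adjusted p = 4.73e-12), 1.46-fold. The call held in each of the 8 fits that left out a library (adjusted p at most 0.0390), and was lost with libraries scaled to their total counts (0.33, adjusted p = 0.476) or with the spread shared by all 16 libraries (0.43, adjusted p = 0.239). With the degrader, BRD8 stood at 74.2, 61.2, 57.7 and 67.2 CPM in DMSO 1 to 4 and at 99.0, 46.2, 104 and 106 CPM in degrader 1 to 4. Degrader 2 lay below every DMSO library and its mates above all of them. The log2 fold change was 0.45 ± 0.25 with all libraries (edgeR, adjusted p = 0.340), and BRD8 rose by 0.66 ± 0.10 without degrader 2 (adjusted p = 1.65e-04), 1.57-fold.

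**Figure D3:**
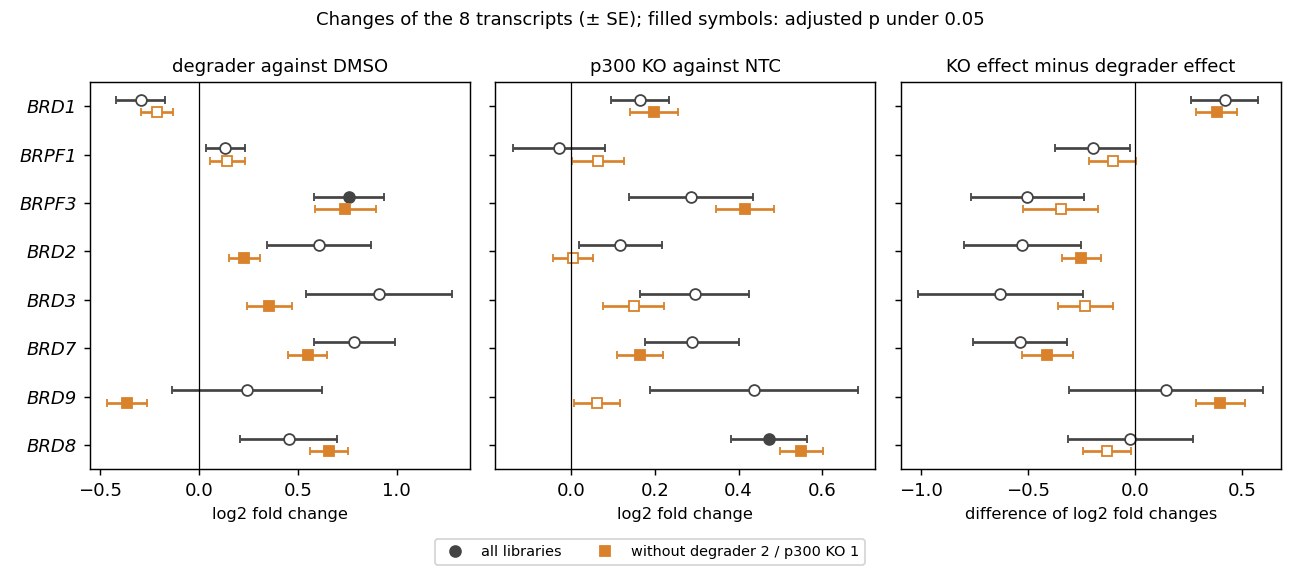
Log2 fold change with its SE for each transcript in the degrader comparison, the knockout comparison and the difference of both effects (knockout effect minus degrader effect); circles use all libraries, squares leave out degrader 2, p300 KO 1 or both, and filled symbols have an adjusted p under 0.05. BRD9 with the degrader is at 0.24 with all libraries and at −0.36 without degrader 2.

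The difference between the effects was tested as the knockout effect minus the degrader effect. With all 16 libraries edgeR called 0 of the 8 members, against 6.58% of 18068 genes. Limma-voom with quality weights called 4 (37.8% of genes) and DESeq2 called 0 (11.8% of genes). In edgeR 2 members had an unadjusted p under 0.05, a share not counted over all genes. Without degrader 2 and p300 KO 1, edgeR called 4 of 8, against 32.0% of 18432 genes. BRD1 (0.38 ± 0.10, adjusted p = 0.00438) and BRD9 (0.40 ± 0.11, adjusted p = 0.00960) were higher in the knockout effect than in the degrader effect. BRD7 (−0.41 ± 0.12, adjusted p = 0.00967) and BRD2 (−0.25 ± 0.09, adjusted p = 0.0368) were lower in it. BRPF3 (−0.35 ± 0.18), BRD3 (−0.23 ± 0.13), BRD8 (−0.13 ± 0.11) and BRPF1 (−0.11 ± 0.11) did not pass (edgeR, adjusted p from 0.132 to 0.501). No member was called in both comparisons with all libraries. Without the 2 libraries, 3 rose in both: BRD7, BRD8 and BRPF3, which is 3 of the 5 that rose with the degrader and 3 of the 4 that rose in the knockout. Of all 15782 genes tested in both, 976 (6.18%) rose in both, which is 32.9% of those that rose with the degrader and 29.2% of those that rose in the knockout.

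Each library rich in mitochondrial counts was set against the other libraries of its group. Against the mean of its 3 mates, degrader 2 had log2 ratios of 1.62 for BRD9, 1.55 for BRD3, 1.12 for BRD2 and 0.76 for BRD7. The ratios of p300 KO 1 against its mates were 1.14, 0.52, 0.40 and 0.45 for the same genes, so these 4 were high in both. BRD8 was low in both, at −1.15 and −0.35, as was BRD1 at −0.43 and −0.15. BRPF3 was within its mates' range in degrader 2 (0.02) and below it in p300 KO 1 (−0.64). Most genes stood apart in these libraries: 45.7% of all genes tested lay above every mate in degrader 2 and 43.4% below, and in p300 KO 1 43.1% lay above and 40.2% below. The share of all genes displaced the same way in both libraries was not counted. The agreement among the members therefore cannot be read as particular to them.

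**Figure D4:**
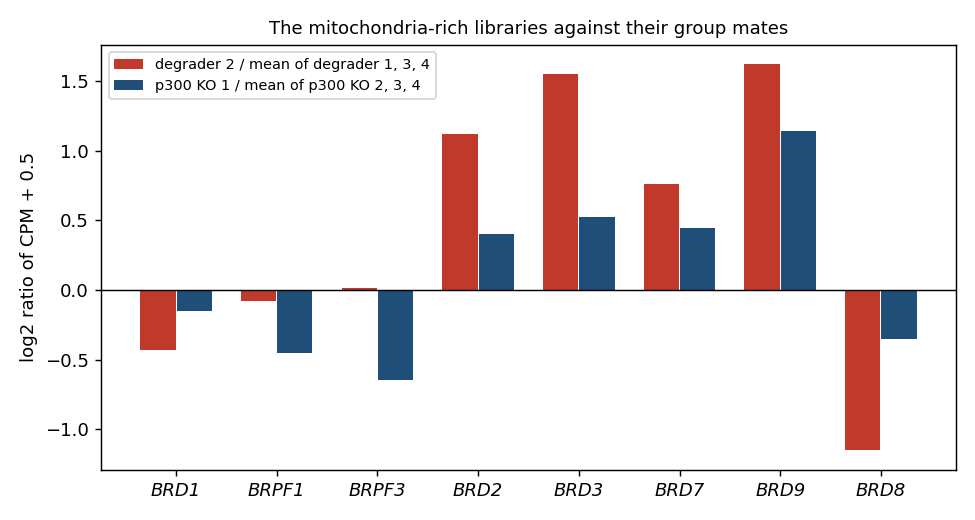
Log2 ratio of CPM + 0.5 in degrader 2 (red) and p300 KO 1 (blue) to the mean of the other 3 libraries of the same group, for each transcript. Bars for BRD9, BRD3, BRD2 and BRD7 point up in both libraries and bars for BRD8, BRD1 and BRPF1 point down in both.

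Because the mitochondrial share separates DMSO from the other degrader libraries, the comparison was also fitted with that share (as log2 odds) as a covariate. With all libraries 7 members were then called, against 35.7% of all genes, in a fit that leans on degrader 2 and its share of 64.9%. Without degrader 2 edgeR called 0 members and 3.35% of genes. An unadjusted p under 0.05 was reached there by 1 member, a share not counted over all genes. In that second fit BRD8 had 0.61 (adjusted p = 0.194), BRD7 0.33 (adjusted p = 0.505), BRD9 0.25 (adjusted p = 0.546) and BRPF3 −0.60 (adjusted p = 0.280). The values of BRD9 and BRPF3 are opposite in sign to those without the covariate. Without degrader 2 the shares of the groups do not overlap, so treatment and mitochondrial share cannot be told apart. In the knockout comparison the same covariate left 4 members called with all libraries (40.4% of genes) and 4 without p300 KO 1 (22.0% of genes), BRD1, BRD7, BRD8 and BRPF3 in each.

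Genes of the complexes in which the readers work were read from lists of their subunits. The edgeR counts of these lists, of the BET partners and of the further bromodomain genes below stand beside these shares of all genes. With the degrader, edgeR called 4.76%, and 38.5% without degrader 2. In the knockout it called 17.0%, and 40.9% without p300 KO 1. Of 9 subunits of the MOZ/MORF and HBO1 complexes other than the members, edgeR called 0 with the degrader. Limma-voom with quality weights called 5 (48.0% of all genes) and DESeq2 called 1 (11.5% of all genes). An unadjusted p under 0.05 was reached by 3, and that share was not counted over all genes. Without degrader 2, 3 rose and 1 fell: MEAF6 (0.45), a shared small subunit, ING4 (0.48), a reader of methylated histone H3, and JADE2 (0.32), a scaffold, rose, and the acetyltransferase KAT6B, which encodes MORF, had −0.45. In the knockout 2 rose, MEAF6 (0.25) and KAT7 (0.33), which encodes HBO1. Without p300 KO 1, 6 rose, among them KAT6B (0.33), and 1 fell. The difference of effects for KAT6B was 0.11 ± 0.60 with all libraries and 0.76 ± 0.12 without both (edgeR, adjusted p = 0.955 and 3.09e-05). The median of the list was 0.24 with the degrader and 0.25 in the knockout with all libraries, and −0.02 and 0.27 without degrader 2 and p300 KO 1.

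Of 17 NuA4/TIP60 subunits, 2 rose and none fell with the degrader, ING3 (0.62 ± 0.14) and DMAP1 (0.57 ± 0.13; edgeR, adjusted p = 0.0354 and 0.0394). Without degrader 2, 8 rose and 3 fell, with YEATS4, a reader of acetylated histones, at 0.60 and TRRAP, the large scaffold, at −0.62. In the knockout 4 rose and 1 fell, with ING3 at 0.38, DMAP1 at 0.25 and the ATPase RUVBL1 at −0.47 ± 0.08 (edgeR, adjusted p = 0.00385), and without p300 KO 1, 7 rose and 1 fell, RUVBL1 at −0.41. ING3 and DMAP1 were thus called in the same direction as BRD8 in the knockout. The list's median was 0.28 with the degrader and 0.07 in the knockout with all libraries, and 0.22 and 0.06 without the named libraries.

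Of 25 SWI/SNF subunits tested, 2 rose and 1 fell with the degrader: DPF1, a neuronal BAF subunit, at 1.28 ± 0.28, SMARCE1, a core subunit, at 0.59 ± 0.13, and BICRA, a subunit of the non-canonical form that holds BRD9, at −0.42 ± 0.09 (edgeR, adjusted p = 0.0362, 0.0434 and 0.0418). Without degrader 2, 5 rose and 7 fell, the latter including ARID1A (−0.61) and ARID1B (−0.69), the DNA-binding subunits of canonical BAF. In the knockout 4 rose and 1 fell: SMARCC2 (0.45) and SMARCD1 (0.22), core subunits, and BCL7B (0.23) were among those that rose, and the ATPase SMARCA2 had −0.52 ± 0.07 (adjusted p = 0.00118). Without p300 KO 1, 12 rose and 3 fell, with PBRM1, a PBAF subunit, at 0.30 and SMARCA2 at −0.49. The median was 0.21 with the degrader and 0.20 in the knockout with all libraries, and 0.04 and 0.17 without the named libraries.

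Of 11 partners of the BET proteins, edgeR called 0 with the degrader. Limma-voom with quality weights called 5 (48.0% of all genes) and DESeq2 called 0 (11.5% of all genes). An unadjusted p under 0.05 was reached by 3, a share not counted over all genes. Without degrader 2, 3 rose and 2 fell: HEXIM1 (0.49) and HEXIM2 (0.37), inhibitors of the elongation factor P-TEFb, and E2F1 (0.27), a cell cycle transcription factor, rose, and CCNT2, a cyclin of P-TEFb, had −0.41. In the knockout HEXIM1 rose by 0.40 ± 0.07 and JMJD6, a hydroxylase, had −0.28 ± 0.06 (edgeR, adjusted p = 0.00567 and 0.0173). Without p300 KO 1, 6 rose and 1 fell. The list's median was 0.29 with the degrader and 0.20 in the knockout with all libraries, and −0.08 and 0.16 without the named libraries.

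Among 32 further genes that encode a bromodomain, 1 of 30 tested rose with the degrader, SP140, a nuclear body protein of lymphoid cells, at 2.37 ± 0.39 (edgeR, adjusted p = 0.0130). Without degrader 2, 6 rose and 8 fell, with SP140 at 2.29 and the methyltransferases ASH1L at −0.69 and KMT2A at −0.55. In the knockout 4 of 31 rose and 2 fell, the latter being EP300 itself and SMARCA2; ATAD2 (0.68 ± 0.12) and CREBBP (0.32 ± 0.06), which encodes the p300 paralogue CBP, were among those that rose (adjusted p = 0.00531 and 0.00850). Without p300 KO 1, 14 rose and 4 fell, with ATAD2 at 0.54 and CREBBP at 0.31. The median was 0.39 with the degrader and 0.34 in the knockout with all libraries, and −0.11 and 0.15 without the named libraries.

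For the members other than BRD7, the genes whose log2 CPM ran most alike were found over the 14 libraries other than degrader 2 and p300 KO 1, among 9052 well expressed genes. CEP95 and NPRL2 ran most like BRD9 (Pearson r 0.994 each), and DAZAP2 and PGAP6 most like BRPF3 (0.992 each). HGSNAT and SEPTIN8 ran most like BRD3 (0.983 and 0.973), and MED19 and KRT10 most like BRD2 (0.982 and 0.946). The values were lower for BRPF1 with RARS2 and SCAP (0.954 and 0.936), BRD1 with PIAS2 and MUC20-OT1 (0.931 and 0.923) and BRD8 with PRPSAP1 and KLHL7 (0.927 and 0.926). The libraries fall into 2 experiments with different levels of BRD9, BRPF3 and BRD3, so these are descriptions of this set of libraries.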

How the data were processed

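The authors deposited counts per gene, 1 table per library, with exon positions for 57500 genes. Reads went through STAR 2.5.2b and Trimmomatic 0.36 and were counted on GRCh38 with Subread 1.5.2 (featureCounts), per the submitters' processing notes, which also name DESeq2 1.16.1. For strand use, multimapping and the annotation release, the setting is not given in the sources used. Identifiers were matched to symbols, exons to GENCODE 29 and promoters to RefSeq.

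The deposited counts were tested with edgeR 4.0.16 (R 4.3.3; filterByExpr, TMM scaling, quasi-likelihood test), on the 8 libraries of each comparison, and on all 16 for the difference of effects. Benjamini-Hochberg adjustment covered all genes tested, with calls at an adjusted p under 0.05. The SE was derived from the F statistic. Fits were checked on simulated counts, with 1 spread for all genes. Of 200 planted changes, 179 were recovered in the degrader fit, 171 in the knockout fit and 114 in the difference. No simulated library had an outlying pattern of genes, so the check does not cover libraries such as degrader 2 and p300 KO 1. Alternatives used DESeq2 1.42.0, limma-voom with sample quality weights (limma 3.58.1), other scaling, filters and left-out libraries.

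The members and lists were chosen with earlier results of these data known. All members are named, with EP300, up to 4 called genes per list with the smallest p, and the 2 most similar genes per member, which for BRD7 are not reported here. Marker genes, BRD3OS and ADCY7 are outside this rule and are given as checks.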

Additional observations from a re-analysis of the deposited data

Results flagged for a closer look

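Of 32 groups of 4 libraries, 10 had a library whose gap to its nearest mate exceeded Dixon's 95% critical share of the group's range. Chance flags about 1 in 20 independent groups. These groups share the same 16 libraries, so that rate cannot be set against their number. Such flags were not counted over all genes. Of the 10, 5 were in degrader 2, at 482 CPM for BRD2, 36.5 CPM for BRD3, 160 CPM for BRD7, 46.2 CPM for BRD8 and 327 CPM for BRD9. Another 4 were in p300 KO 1, at 294 CPM for BRD2, 130 CPM for BRD9, 27.6 CPM for BRPF1 and 22.2 CPM for BRPF3. These are the libraries with 64.9% and 47.7% mitochondrial counts. In degrader 2, 45.7% of all genes tested lay above every mate and 43.4% below. In p300 KO 1 it was 43.1% and 40.2%. The remaining one was BRD7 in DMSO 1, at 52.4 CPM.

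The knockout effect and the degrader effect differed by the test of their difference (edgeR's quasi-likelihood test, adjusted p from 0.00438 to 0.0368) for 4 members once degrader 2 and p300 KO 1 were left out. The differences in log2 fold change were 0.38 for BRD1, −0.25 for BRD2, −0.41 for BRD7 and 0.40 for BRD9. With all 16 libraries edgeR called none of the 8 members (6.58% of all genes), and 2 had an unadjusted p under 0.05, a share not counted over all genes. DESeq2 called 0 (11.8% of all genes) and limma-voom 4 (37.8% of all genes).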

How the results depend on the processing

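The share of all genes called stands in brackets beside each count of members, and limma-voom was run with quality weights throughout. Members called with the degrader (1 with all libraries, 4.76%) ranged from 0 to 6 when each library was left out (1.22 to 38.5%), and were 0 with total count scaling (1.03%) or no filter (1.10%), 2 with DESeq2 (11.5%) or a spread shared by 16 libraries (12.7%), and 8 with limma-voom (48.0%). Members called in the knockout (1, 17.0%) ranged from 1 to 4 when each library was left out (8.75 to 40.9%), and were 0 with total count scaling (7.28%) or shared spread (8.21%) and 4 with limma-voom (39.6%). In the difference (0, 6.58%) limma-voom (37.8%) and the fit without both libraries (32.0%) called 4. Alternatives chosen after seeing the data called 6 (DESeq2, 36.7%, and total counts, 41.1%) and 8 (limma-voom, 50.3%) without degrader 2, 7 with the mitochondrial covariate (35.7%) and 0 with that covariate without degrader 2 (3.35%). In the knockout without p300 KO 1, DESeq2 (35.7%), limma-voom (40.7%), total counts (40.3%) and the covariate (22.0%) called 4 each, as did the covariate with all libraries (40.4%). Total count scaling moved the median log2 fold change of all genes from 0.045 to −0.094 with the degrader and from 0.025 to −0.14 in the knockout. It also changed the split of all calls, from 260 higher and 495 lower to 19 and 145 with the degrader, from 2970 and 3309 to 4232 and 2465 without degrader 2, and from 1081 and 1863 to 61 and 1202 in the knockout.

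Without degrader 2 and with total counts, BRPF1 was called higher (0.26, adjusted p = 0.0453, edgeR) and BRD9 was not called (−0.25, adjusted p = 0.0562). BRD9 with the degrader had 0.24 with all libraries and ranged from −0.36 (without degrader 2) to 0.41 over the left-out libraries; it had −0.17 with total counts, −0.30 with limma-voom, and −0.34 (DESeq2) and −0.33 (limma-voom) without degrader 2. With the covariate it had 0.22 with all libraries, called higher (adjusted p = 0.0203, edgeR), and 0.25 without degrader 2 (adjusted p = 0.546), where BRPF1 had −0.014 and BRPF3 −0.60. In the knockout BRPF1 ranged from −0.073 to 0.065 over the left-out libraries; it had 0.063 with limma-voom and, without p300 KO 1, 0.071 with DESeq2, 0.069 with limma-voom and 0.056 with total counts, and 0.10 and 0.14 with the covariate. BRD2 had −0.087 and −0.0032 with total counts, with and without p300 KO 1, and −0.016 with the covariate, where BRD9 had −0.0012. In the difference BRD8 ranged from −0.24 to 0.092 and BRD9 from −0.16 to 0.70 over the left-out libraries. The cause of these changes was not tested.

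Replicate numbers gave no sign of pairing. Same-numbered libraries correlated at −0.57 to 0.32 in the degrader experiment and −0.28 to 0.10 in the knockout, and 0 of 8 correlated best with its own number. The odd libraries weigh on this check. DMSO 3 had −0.64, −0.57 and −0.49 with degrader 1, 3 and 4, and 0.60 with degrader 2. NTC 3 had 0.39 with p300 KO 1, and −0.36, −0.28 and −0.38 with p300 KO 2, 3 and 4. A pairing could therefore have gone unseen. With the replicate block, 0 members were called with the degrader (0.151% of all genes), 1 in the knockout (7.52%) and 0 in the difference (1.69%), where BRD8 had 0.033. Without degrader 2 the block called 5 (38.9%), with BRD9 at −0.43, and without p300 KO 1 it called 4 (37.3%), with BRPF1 at 0.077. Degrader 2 holds 4.42 M counts outside mitochondrial genes, the fewest of all, which limits low transcripts such as BRPF3 there to 100 counts.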
